A study of Caenorhabditis elegans with 4 samples.

Results

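The 761 FKH-2 peaks on chromosome V of Caenorhabditis elegans are described here, out of 3378 peaks in the combined list of the study. The rule took every peak of that list on V, by position, and used no q value, width or overlap. Chromatin immunoprecipitation followed by sequencing (ChIP-seq) was carried out on L3 larvae of strain OP185, hermaphrodites grown at 20 °C and fixed with 2% formaldehyde, with antibodies against GFP. All 4 samples, 2 ChIP replicates and 2 inputs of genomic DNA, came from this strain. It has the unc-119(ed3) allele and, brought in by bombardment, the transgene wgIs185, in which fkh-2 is joined to TY1, EGFP and FLAG tags and an unc-119 sequence is included. The peaks therefore concern a tagged protein made from a transgene. A strain note among the labels calls the fusion FKH-1, against FKH-2 in the genotype and titles. Animals were collected whole, so binding in fewer cells and weaker binding per cell cannot be told apart. Whether the replicates were separate cultures is not given in the titles, and no values of the inputs were analysed here.

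FKH-2 belongs to the forkhead family, transcription factors that bind DNA through a winged-helix domain and regulate genes in development and in differentiated cells. In C. elegans, fkh-2 has been studied in ciliated sensory neurons. Worm autosomes have a centre of low recombination that is rich in conserved and widely expressed genes, and arms of high recombination that carry more repeats and fast-evolving gene families. Chromosome V is the longest worm chromosome and is known for its large families of chemoreceptor and nuclear hormone receptor genes, many of them on the arms. No peak was assigned to a gene and no peak sequence is shown, since annotation and sequence of the same genome build (WormBase WS220) were not used here.

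Besides the combined list, which carries a q value per peak as the authors gave it, each ChIP replicate has a peak list of its own. Replicate 1 had 6017 peaks on V, all 400 bp wide, and replicate 2 had 4224, all 260 bp wide. Peak width is uniform within each replicate list, so widths on V can be compared in the combined list only. Peaks of the replicate lists are ranked by the number in their names, where low numbers lead, and where several overlap a combined peak the best rank is given. The best-ranked V peak was number 32 in replicate 1 and number 33 in replicate 2. Sequencing depth is unknown. Peaks are not replicates, and the exact tests below treat each peak as independent, although neighbouring peaks and overlapping lists share reads. Their p-values and the 95% intervals cover counting error only.

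The V peaks were mostly small. Their width ran from 1 to 2524 bp with a median of 129 bp and quartiles of 58 and 200 bp, against a median of 150 bp on the other nuclear chromosomes. By chromosome the median was 131 bp on IV, 139.5 on II, 140 on III, 178.5 on X and 250.5 on I. Together the V peaks covered 127.8 kb. Among them, 86 (11.3%) were at most 20 bp wide, 7 of these a single base, and 39 (5.12%) were at least 400 bp wide. Over all combined peaks these shares were 11.8% and 5.77%. Neither share on V could be told from that of the other 2617 peaks, which was 11.9% for narrow peaks (2-sided Fisher exact test, adjusted p = 0.779) and 5.96% for wide ones (Fisher exact, adjusted p = 0.610). The p-values of all comparisons of V with the other peaks were adjusted together over 10 tests. When V was cut into 3 equal parts, called left arm, centre and right arm here, peaks at most 20 bp wide made up 14.6% of the left arm, 10.0% of the centre and 10.2% of the right arm, with intervals that overlapped. Wide peaks made up 5.37% of the left arm (2.71 to 9.40), 3.00% of the centre (1.38 to 5.62) and 7.42% of the right arm (4.53 to 11.3). A single 50 kb window, the fullest of V, held 9 of the 19 wide peaks of the right arm, and without it the right share was 4.27% (2.07 to 7.72).

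The deposited q values of the V peaks ran from 1.00e-30 to 0.00999662, with a median of 0.00544. A q above 0.005 was found at 410 of 761 members (53.9%) and at 1309 of 2617 other combined peaks (50.0%). At the other end, 21 V peaks (2.76%) had a q of at most 1e-06, where 3.88% of all combined peaks did. The share elsewhere was 4.20%, a difference that did not pass the test (Fisher exact, adjusted p = 0.176). These 21 peaks were 273 to 1574 bp wide with a median of 602 bp. Of them, 8 lay in the left arm (3.90% of its peaks, 1.70 to 7.54), 4 in the centre (1.33%, 0.364 to 3.38) and 9 in the right arm (3.52%, 1.62 to 6.57). These intervals overlapped, and centre against arms did not pass the test (Fisher exact, adjusted p = 0.242). On the right, 7 of the 9 lay in the fullest window. Without that window the share on V was 1.89%, a value that is lower by construction, since the window was picked on V and taken from V alone.

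The 10 V peaks with the lowest q fell at 5 places. The first, V:264907-266012, had q = 1.00e-30 and was 1106 bp wide. It stood alone, 24622 bp from the next combined peak, and its best replicate peaks were far down, at rank 20426 for replicate 1 and rank 1987 for replicate 2. The next 5 peaks, with q from 7.68e-19 to 4.18e-13, all lay in the fullest window, described below. In the left arm, V:6224502-6225057 (q = 2.09e-11) and V:6227343-6228119 (q = 1.37e-12) were 2285 bp apart. This pair held leading peaks of both replicates, at ranks 32 and 128 at the first peak and 128 and 145 at the second. The remaining 2 differed in the same respect. V:9731011-9731403 in the centre (q = 2.50e-09) held peaks ranked 126 and 70, whereas V:5284006-5285579 on the left, 1574 bp wide with q = 3.57e-12, held peaks ranked 3534 and 19567. A low q thus did not always go with leading ranks. Of the 21 V peaks with q at most 1e-06, 11 (52.4%, 29.8 to 74.3) had peaks ranked within the first 1000 of both replicates, and elsewhere 64 of 110 did (58.2%, 48.4 to 67.5).

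Sites of V that led both replicate lists were also picked out, as places where overlapping peaks ranked within the first 300 of each. There were 10 of them, each overlapped by 1 combined peak, with combined widths of 329 to 777 bp. Over all chromosomes, 611 replicate 1 peaks and 789 replicate 2 peaks tied at the top score. The limit of 300 therefore follows the peak numbers and is not set by the score alone. The sites spread over V, with 4 in the left arm, 4 in the centre and 2 in the right arm. V:5329802-5330263 had the most even pair of ranks, 52 and 48, with q = 5.50e-09. In the centre, V:8000850-8001225 was ranked 65 and 165 with q = 2.68e-08, and V:9546854-9547195 was ranked 134 and 62 with q = 1.80e-06. On the right, V:14200097-14200444 was ranked 61 and 233 with q = 4.41e-08, and V:19897529-19897871 was ranked 272 and 214 with q = 2.02e-08. The weakest q among the 10 was 2.21e-05, at V:6033551-6033888 and V:10871461-10871789, the 39th and 38th lowest q of V. None of these 10 sites lay in the fullest window of V.

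Peak density along V was compared between the left arm, the centre and the right arm, each 6.97 Mb long. The centre was the densest, with 300 peaks or 43.02 per Mb (38.3 to 48.2). The right arm had 256 peaks or 36.7 per Mb (32.4 to 41.5), and the left arm had 205 or 29.4 per Mb (25.5 to 33.7). The right arm count includes 22 peaks of the fullest 50 kb window of V. The interval of the left arm lay wholly below that of the centre, while those of centre and right arm overlapped. The centre held 39.4% of V peaks (35.9 to 43.0), against 37.7% over all autosomes. The other autosomes had 37.1% there, so the central share of V did not differ detectably from theirs (Fisher exact, adjusted p = 0.454).

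**Figure D1:**
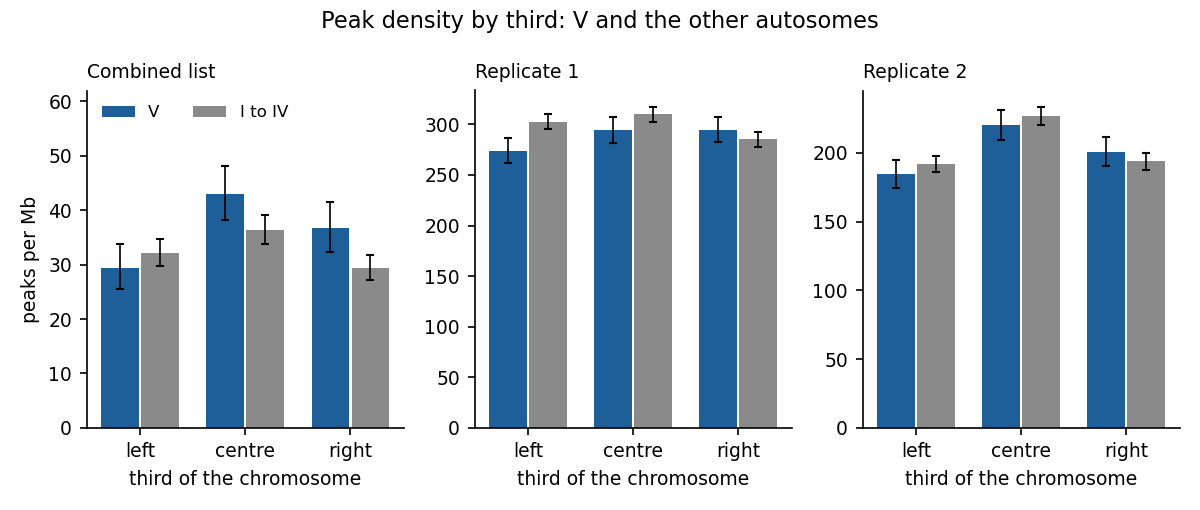
Peaks per Mb in the left arm, centre and right arm of V (blue) and of chromosomes I to IV together (grey), for the combined list and each replicate list; bars start at 0, error bars are exact 95% Poisson intervals of the counts, and the vertical scale differs between panels. In the combined list V had 29.4, 43.02 and 36.7 peaks per Mb from left to right, and the left arm was the lowest of V in all 3 lists. Chromosome I is sparse in the combined list and lowers the grey bars there. Its centre had 9.56 peaks per Mb, against 40.7 on II, 51.6 on III and 43.6 on IV.

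The arms of V were unequal. Of the 461 V peaks outside the centre, 205 (44.5%, 39.9 to 49.1) lay on the left, against 50.2% over the arms of all autosomes. On the other autosomes 661 of 1265 (52.3%) did, a difference of -7.78 percentage points (Fisher exact, adjusted p = 0.0465; 0.0104 to 0.531 over the alternatives). The contrast rested on chromosome IV, where 60.4% of arm peaks were on the left, while II had 44.9%, III 48.1%, I 54.8% and X 44.7%. With IV left out, a setting added after these shares were seen, the others had 47.4% and the difference did not pass (Fisher exact, adjusted p = 0.531). Without chromosome I the adjusted p of the same exact test was 0.0603, and with q at most 0.001 it was 0.222. Without the fullest window of V it was 0.176, and with replicate 1 left out 0.176. That window lies in the right arm, and without it 46.7% of V arm peaks were on the left. The replicate lists leaned the same way on V by less, with 48.2% of arm peaks on the left in replicate 1 (46.6 to 49.8) and 47.9% in replicate 2 (45.995 to 49.8).

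In a finer view of 20 equal bins of V, each about 1.05 Mb long and numbered from the left, the combined list ran from 15 peaks in bin 3 to 59 in bin 12. Bin 3 was the lowest in replicate 1, with 218 peaks, and in replicate 2, with 124. The highest bin differed between the lists. It was bin 12 in the combined list and in replicate 2, with 268 peaks there, and bin 19 in replicate 1, with 390. As a description over 20 bins that share their underlying reads, the counts of the 2 replicates had Pearson's r = 0.757 and Spearman's rho = 0.702. Combined and replicate 1 counts had r = 0.615 and rho = 0.513, and combined and replicate 2 counts r = 0.679 and rho = 0.538.

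**Figure D2:**
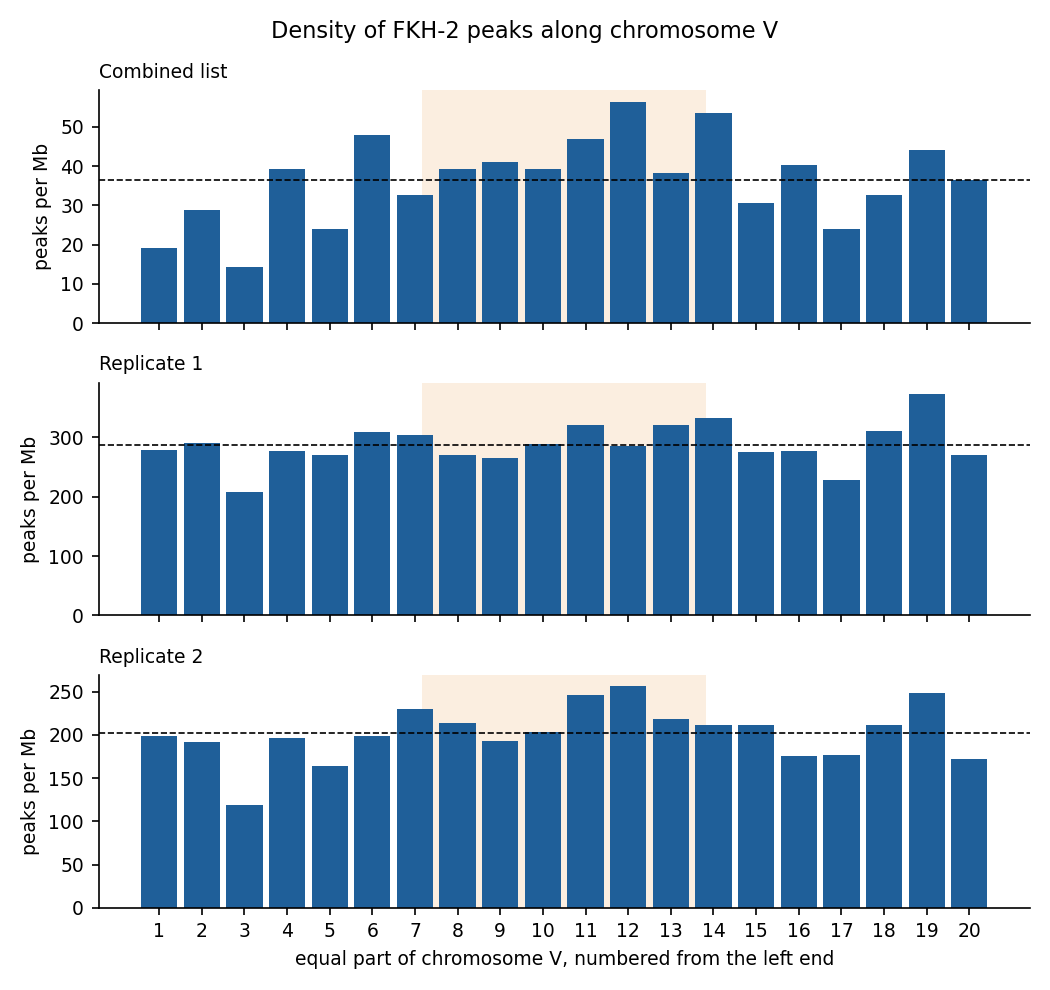
Peaks per Mb in 20 equal bins of V, numbered from the left end, in the combined list and in each replicate list; the dashed line is the mean of V in that list and the shaded band marks the centre. Bin 3 was the lowest in all 3 lists, with 15, 218 and 124 peaks.

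Bin 3 holds a long empty stretch. The longest run of V without a combined peak was V:2281822-2574261, 292.4 kb. Both replicate lists had their own longest peak-free run of V inside it, V:2344421-2566442 (222.02 kb) in replicate 1 and V:2342129-2572559 (230.4 kb) in replicate 2. Over the whole 292.4 kb, replicate 1 had 17 peaks or 58.1 per Mb, against 287.6 per Mb on all of V, and replicate 2 had 13 or 44.5 per Mb against 201.9. The next longest runs without combined peaks were of another kind. V:15189772-15374123 (184.4 kb) held 44 replicate 1 and 37 replicate 2 peaks, and V:10489962-10671097 (181.1 kb) held 39 and 42, densities of 215.3 to 238.7 per Mb in replicate 1 and 200.7 to 231.9 in replicate 2. The first run was thus sparse in all 3 lists, and the other 2 in the combined list.

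Spacing within V was mostly wide. Neighbouring V peaks were separated by a median of 16.7 kb (quartiles 5.61 and 36.9 kb), and no gap was shorter than 210 bp. The shortest gap on the other chromosomes was similar, at 200 bp. The distance to the nearest combined peak had a median of 8012 bp on V and 7078 bp elsewhere, from 5734 bp on III to 36000.5 bp on I. Only 72 of 761 members (9.46%, 7.48 to 11.8) had another combined peak within 1 kb, where 11.4% of all combined peaks did. The share was 11.96% elsewhere, a difference that did not pass the test (Fisher exact, adjusted p = 0.176), and it ran from 6.82% on I to 14.9% on IV. Within 10 kb, 57.6% of V peaks (53.95 to 61.1) and 59.3% of the others (57.4 to 61.2) had a neighbour. By place on V, 4.88% of left peaks (2.36 to 8.79), 9.67% of central peaks (6.57 to 13.6) and 12.9% of right peaks (9.04 to 17.6) had one within 1 kb.

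The order of centre and right arm turned without the fullest window. With it left out, 15 of 234 right peaks (6.41%, 3.63 to 10.4) had such a neighbour, below the centre, and the share on all of V was 7.31%, lower by construction as well.

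The direction of the 1 kb comparison with the other chromosomes was not stable. When only peaks with q at most 0.001 were kept, 12.1% of V peaks and 6.16% of the others had another kept peak within 1 kb (Fisher exact, adjusted p = 0.116). The kept neighbours on V included close peaks of the fullest window. Among them were V:14366221-14367421 and V:14367648-14368883, 226 bp apart, and a group of 3 at V:14391464-14395232. The share at this q without the window was not computed. With replicate 1 left out, only combined peaks overlapped by replicate 2 were kept, also as neighbours. The share was then 8.64% on V against 8.02% (adjusted p = 0.779 by the same exact test).

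**Figure D3:**
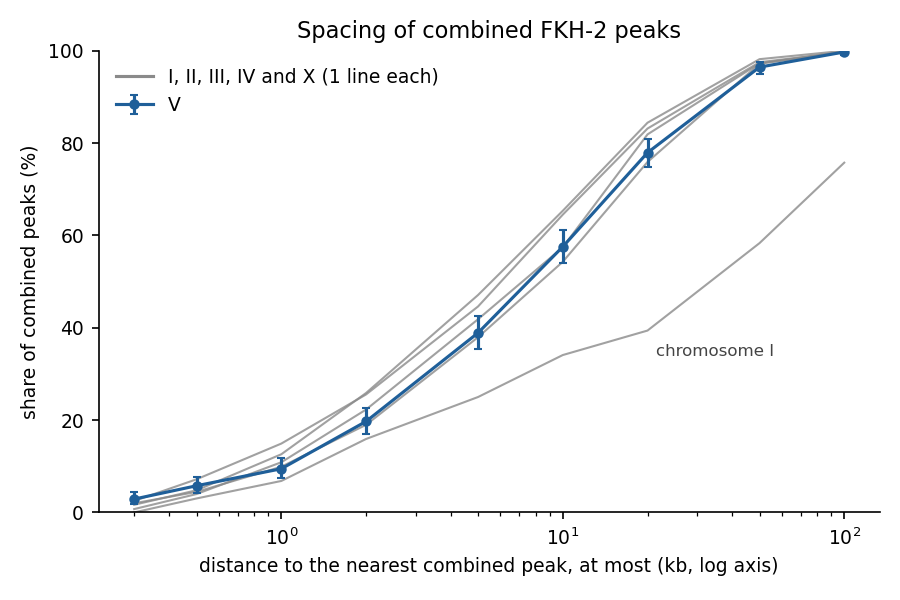
Share of combined peaks with another combined peak at most the given distance away (kb, log axis), for V (blue, with exact 95% binomial intervals) and for I, II, III, IV and X (grey, 1 line each). V had the highest share at 0.3 kb (2.89%), a share below those of II, III, IV and X at 1 kb (9.46%), and 57.6% at 10 kb, where III and IV were higher. At 0.3 kb the interval of V (1.82 to 4.34) overlapped that of IV (2.49%, 1.48 to 3.90). The fullest 50 kb window holds neighbours 210 (the closest pair of V), 226, 242, 249, 259 and 293 bp apart. These peaks are counted in the share of V. The share of V at 0.3 kb without that window was not computed, so no lead outside it is claimed.

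Peaks at most 1 kb apart were chained into groups. The 761 members formed 719 groups, of which 689 were single peaks, 25 pairs and 3 groups of 3. A group of 4 and a group of 9 were the largest on V. The group of 9, V:14364345-14372860, held more peaks than any other group of the combined list, where the next largest had 5 members, on X. In windows of 50 kb, 91 of the 419 windows of V had no combined peak and 126 had 1. The fullest held 22 and the next fullest 8. The same window held the most peaks of V in both replicate lists too, 50 in replicate 1 (median of V 14) and 39 in replicate 2 (median 10).

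These 22 peaks spanned V:14363035-14395232, 32.2 kb, and covered 11721 bp of it. Strong and weak calls alternated. The group of 9 on the left carried 3 of the strongest, V:14366221-14367421 (q = 9.13e-16), V:14367648-14368883 (q = 3.29e-13) and V:14371566-14372860 (q = 1.11e-13), which were 1201, 1236 and 1295 bp wide, and the other 6 of the group were 95 to 553 bp wide. At the right end, V:14391464-14392137 (q = 2.35e-06), V:14392527-14393470 (q = 4.18e-13) and V:14393821-14395232 (q = 7.68e-19) formed a group of 3. Between them lay V:14378456-14379198 (q = 1.85e-07) and V:14382421-14383629 (q = 3.48e-07). Peaks of both replicates overlapped 13 of the 22, replicate 1 overlapped 17, replicate 2 overlapped 17, and 1 peak had neither. The leading replicate peaks did not always coincide with the strongest combined ones. V:14385826-14386114, with q = 0.00218, held the replicate 2 peak ranked 50 and no replicate 1 peak, while V:14384849-14384995, with q = 0.00585, held the replicate 1 peak ranked 220 and no replicate 2 peak. Whether the 22 calls are separate binding sites or pieces of broader enriched stretches was not tested.

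The widest V peaks sat together elsewhere. Of the 5 widest, 4 lay within V:18704102-18724722, a stretch of 20.6 kb near the right end. They were 2524, 2309, 1557 and 1425 bp wide, and yet their q values were only 0.00164, 0.00295, 0.00692 and 1.74e-04. A further 2 peaks in the stretch, 364 and 886 bp wide, had q = 5.04e-04 and 0.00360. All 6 were overlapped by both replicates, at best ranks per peak from 290 to 21094 in replicate 1 and from 117 to 18539 in replicate 2. The widest peak of all, V:18717500-18720023, had a best rank of 117 in replicate 2 and of 13326 in replicate 1. The only other V peak among the 5 widest was V:5284006-5285579, with its far lower q of 3.57e-12. A q of at most 1e-06 was found at 7 of 22 peaks in the fullest window and at 0 of these 6, counts that were not tested, in stretches picked for their crowding and their width.

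**Figure D4:**
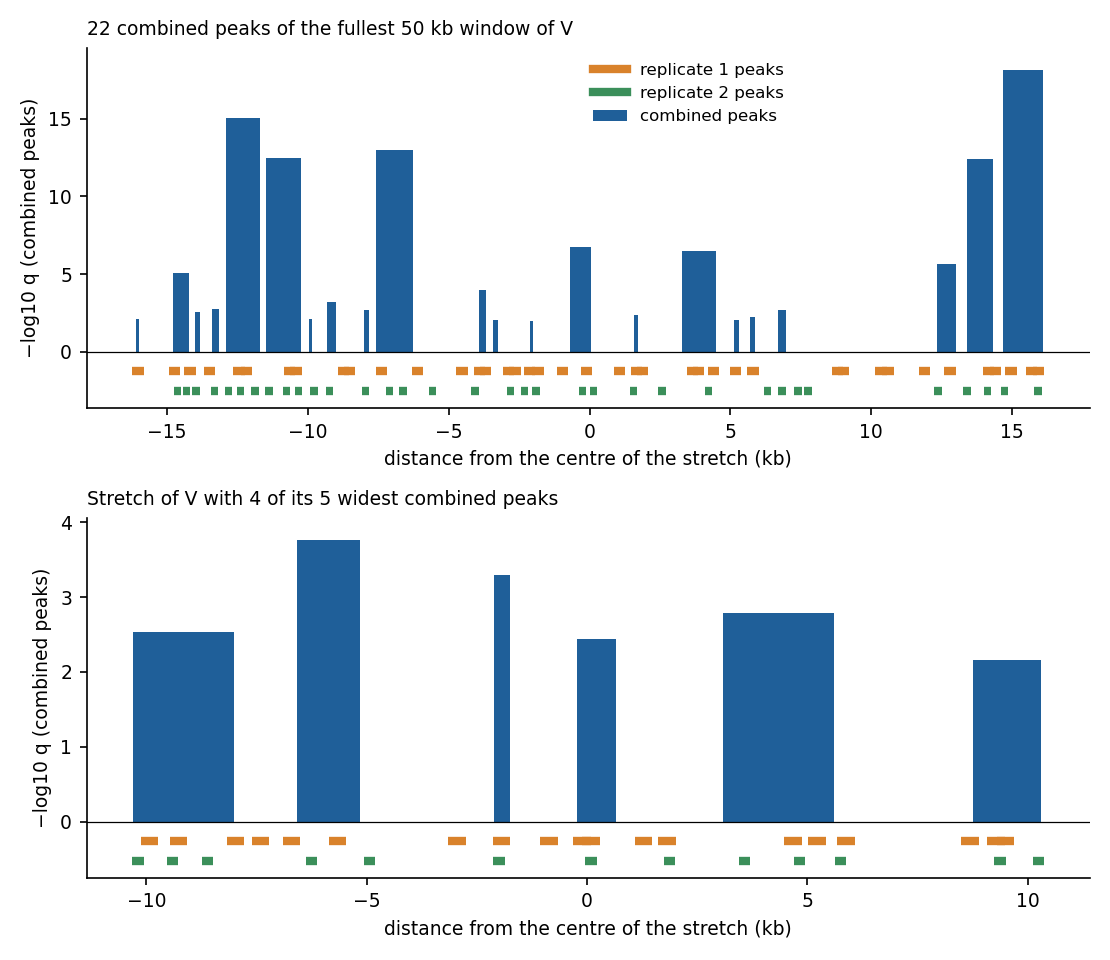
Combined peaks (blue, drawn to width, height −log10 of the deposited q) and peaks of replicate 1 (orange) and replicate 2 (green) below the axis, against distance from the centre of the stretch in kb, for the fullest 50 kb window of V (above) and the stretch with 4 of its 5 widest peaks (below); the vertical scales differ. The upper stretch holds 22 combined peaks with q down to 7.68e-19, and the lower 6 peaks with q no lower than 1.74e-04.

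Support by the replicates was counted as overlap of at least 1 bp. Replicate 1 peaks overlapped 543 of the 761 members (71.4%, 67.997 to 74.5), against 72.2% over all combined peaks, and replicate 2 peaks overlapped 405 (53.2%, 49.6 to 56.8), against 55.5% over all. Neither differed detectably from the other chromosomes, which had 72.4% (Fisher exact, adjusted p = 0.727) and 56.2% (Fisher exact, adjusted p = 0.294). Both replicates overlapped 272 members (35.7%, 32.3 to 39.3), replicate 1 alone 271, replicate 2 alone 133 and neither 85 (11.2%, 9.02 to 13.6). Over all combined peaks, 39.1% had both and 11.4% had neither. The share with both was 40.0% elsewhere, a difference of -4.30 percentage points that did not pass after adjustment (Fisher exact, unadjusted p = 0.0348, adjusted p = 0.174). The direction depended on which chromosomes stood on the other side. The share was 68.9% on I and 50.0% on X, and without these, a setting added after seeing the data, V was slightly higher than II, III and IV together, which had 34.8% (Fisher exact, adjusted p = 0.779). The share with neither was 11.4% elsewhere too (Fisher exact, adjusted p = 0.897).

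Overlap rose with the width of the V peak. Both replicates overlapped 15 of 86 members of 1 to 20 bp (17.4%, 10.1 to 27.1), 45 of 222 of 21 to 100 bp (20.3%, 15.2 to 26.2), 109 of 289 of 101 to 200 bp (37.7%, 32.1 to 43.6), 71 of 125 of 201 to 399 bp (56.8%, 47.6 to 65.6) and 32 of 39 of at least 400 bp (82.1%, 66.5 to 92.5). The other chromosomes climbed likewise, from 13.5% in the narrowest class to 82.7% in the widest, and in each class the intervals of V and of the others overlapped. A wider peak has more bases that can be overlapped, and the part of size alone in the rise was not tested. Replicate 1 overlapped all 39 V peaks of at least 400 bp, against 143 of 156 elsewhere (91.7%). Neither replicate overlapped 28 of the 86 narrowest (32.6%, 22.8 to 43.5), against 76 of 312 elsewhere (24.4%, 19.7 to 29.5). By q, both replicates overlapped 20 of 21 members at or below 1e-06, 74 of 111 (66.7%) up to 0.001, 91 of 219 (41.6%) up to 0.005 and 87 of 410 (21.2%) above. The other chromosomes had a similar series of 90.0%, 68.3%, 40.9% and 25.8%.

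**Figure D5:**
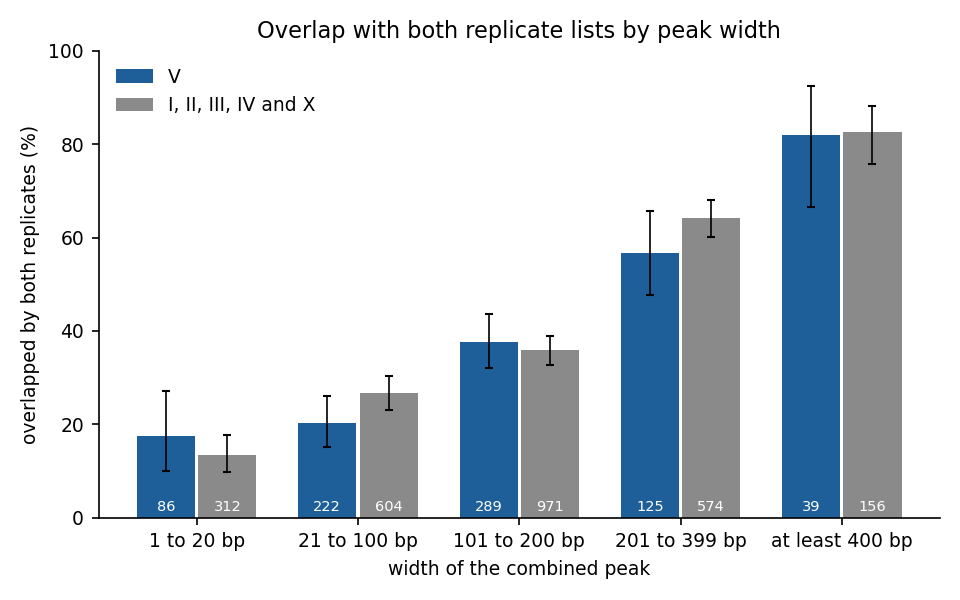
Share of combined peaks overlapped by peaks of both replicates, by width class, on V (blue) and on I, II, III, IV and X together (grey), with exact 95% binomial intervals and the number of peaks in each bar. The share on V rose from 17.4% for peaks of 1 to 20 bp to 82.1% for peaks of at least 400 bp, and the intervals of both sets overlapped in every class.

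Within V, support did not depend detectably on place or on neighbours. Both replicates overlapped 34.7% of central members and 36.4% of arm members (Fisher exact, adjusted p = 0.857 over 4 tests within V). Among members with a neighbour within 1 kb the share was 44.4% (32 of 72), and among the others 34.8% (Fisher exact, adjusted p = 0.242). A neighbour within 1 kb was found at 9.67% of central and 9.33% of arm members (Fisher exact, adjusted p = 0.8995), and a q of at most 1e-06 at 1.33% and 3.69% (Fisher exact, adjusted p = 0.242). The neighbour comparison depended on where the centre ends. With the middle 50% of V as the centre, which takes in the window of 22 peaks, the shares were 12.8% and 4.75% (Fisher exact, adjusted p = 5.58e-04).

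Where a replicate peak overlapped a V member, 1 peak usually did so, in 465 of 543 cases for replicate 1 and 387 of 405 for replicate 2. Midpoints of member and nearest replicate peak were a median of 49.5 bp apart in replicate 1 and 50.5 bp in replicate 2. The replicate peaks on V members tended to stand lower in their lists, with a median best rank of 4566 in replicate 1 and 4418 in replicate 2 against 3496 and 3650 elsewhere, medians that were not tested. Ties at the top score covered 611 replicate 1 peaks and 789 replicate 2 peaks over all chromosomes. Tied peaks overlapped 69 members in replicate 1 (9.07%, 7.12 to 11.3), against 14.6% of the other combined peaks (13.3 to 16.05), and 78 in replicate 2 (10.2%, 8.19 to 12.6), against 12.6% (11.4 to 13.9). The intervals were apart in replicate 1 and overlapped in replicate 2. The others include I and X, where both replicates overlapped 68.9% and 50.0% of combined peaks. Neither the ranks nor the ties were compared without I and X.

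Seen from the replicate lists, 620 of 6017 replicate 1 peaks on V (10.3%, 9.55 to 11.1) and 426 of 4224 replicate 2 peaks (10.1%, 9.19 to 11.03) overlapped a member. Elsewhere the shares were 8.89% (8.53 to 9.25), an interval below that of V, and 9.12% (8.69 to 9.57), which overlapped it. Neither difference was tested. Chromosome I is among the others and had only 132 combined peaks, against 4619 replicate 1 and 3107 replicate 2 peaks. The shares without I were not computed. The share was highest at the top of each list. Among V peaks ranked within the first 300, 36 of 38 did in replicate 1 (94.7%) and 34 of 45 in replicate 2 (75.6%), near the shares elsewhere of 93.4% and 79.2%. Of the 11 such replicate 2 peaks without a combined peak, only 2 were overlapped by a replicate 1 peak. The best-ranked of the 11, number 87 at V:18695757-18696016, lay 8.09 kb from the nearest member, on the left of the stretch of widest peaks, and was named after its rank was seen. Between the replicates themselves, 1157 of the replicate 1 peaks on V (19.2%, 18.2 to 20.2) overlapped a replicate 2 peak, against 19.1% elsewhere. Within the first 300 ranks, 28 of 38 did on V (73.7%), against 78.6% elsewhere. Of the 45 replicate 2 peaks on V within those ranks, 26 overlapped a replicate 1 peak (57.8%, 42.2 to 72.3). Elsewhere 75.8% did (69.7 to 81.1), an interval that overlapped that of V. Neither difference within the first 300 was tested. In replicate 2, 28.3% of peaks in the right arm of V (25.9 to 30.7) overlapped a replicate 1 peak. The share was 24.0% in the centre (21.9 to 26.3) and 24.3% in the left arm (21.98 to 26.7). Both intervals overlapped that of the right arm, and the differences were not tested. On the other chromosomes the share was 25.96% (25.3 to 26.6). The fullest window lies in the right arm, and the right arm share without it was not computed.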

How the data were processed

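Peak lists of 2 ChIP replicates and a combined list were used, with groups and replicate numbers from the sample titles. The combined list was made with PeakSeq, per the file's source column, and its deposited q-value per peak is the authors'. Replicate lists name spp via IDR as their source, per the file headers and columns, with a deposited score whose scale is not named; peaks were ranked by the number in their names. Coordinates are WormBase WS220, per the file headers, and are the authors' own positions in bp. Aligner, control, versions and whether the combined list came from pooled reads are not given in the sources used here. Depth is unknown.

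Members and rules were chosen with earlier results of these data known. The length of a chromosome was its largest peak end in any list (V, 20920762 bp). Peaks were assigned to 3 equal parts by midpoint, and neighbours by edge-to-edge distance. Shares were compared by 2-sided Fisher exact tests with Benjamini-Hochberg adjustment (threshold 0.05) and Clopper-Pearson 95% intervals, in Python 3.11.15 with scipy 1.17.1 and pandas 2.3.3, tested on simulated data. Regions named were the 10 lowest q, the 5 widest peaks, groups of 5 or more, the 3 longest empty stretches and sites ranked within the first 300 of both replicates; others were named after their values were seen. Alternatives changed the overlap rule, ranks, q, widths, distances, centre, compared chromosomes and replicates. No motif was searched, since sequence of the build was not used here.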

Additional observations from a re-analysis of the deposited data

How the results depend on the processing

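All values are differences in percentage points, V minus others or first minus second group. Of 113 alternatives, 82 kept direction and side of the threshold, 23 turned direction (none of these passed its test), 5 ended the call on the left arm share and 3 brought a difference past the threshold; causes were not tested. The left arm difference was -11.6 at q at most 0.001, -5.56 without the fullest window, -7.61 without chromosome I, -2.95 without IV (added after seeing the data), and -10.3 to -7.92 with a replicate left out (combined peaks overlapped by the other replicate alone). Without the fullest window, which was picked on V and thins V alone so that lower shares are built in, the neighbour share differed by -4.65 and the low q share by -2.31, both passing. With that window kept, the neighbour difference was 5.96 at q at most 0.001 and 0.661 within 500 bp. It was -1.76 to 0.620 with a replicate left out. Where a setting left combined peaks out, only the peaks kept counted as neighbours, here and within V. Coverage by both replicates turned to 0.937 without I and X. Overlap with replicate 1 turned to 4.87 at q at most 0.001 and 0.245 without X. Overlap with neither turned to 0.677 with 50% of the peak covered and 2.69 with midpoints within 100 bp. The narrow share turned to 1.52 at q at most 0.001, 0.852 at a limit of 50 bp, and lay between -1.05 and 0.0834 with a replicate left out. The wide share turned to 0.181 at q at most 0.001, 0.00301 without X and 0.722 at 600 bp. Within V, centre minus arms, coverage turned to 1.25 with 50% covered, 1.63 with midpoints within 100 bp and 7.01 with the middle 50% as centre. The neighbour share was -2.44 at q at most 0.001, -0.740 within 500 bp, -0.0730 within 2 kb, 8.06 (passing) with the middle 50%, and -0.413 to 1.67 with a replicate left out, and the low q share 2.55 with the middle 50%. Coverage of clustered minus isolated peaks was -0.575 to 11.8 with a replicate left out. No paired analysis was possible because the inputs, the group that shares replicate numbers with the ChIP samples, were not analysed here. The motif share was not run. Unknown depth limits every comparison between lists.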
